A study of Mus musculus with 15 samples.

Results

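The circadian clock genes described here are 10 transcripts chosen by gene symbol: Arntl, Per1, Per2, Per3, Cry1, Nr1d1, Nr1d2, Dbp, Tef and Hlf. They are 10 of the 26595 genes in the deposited expression table, and all 10 were among the 17030 genes tested. RNA was sequenced from 4 groups of brain samples of male C57Bl/6 mice at 5 months of age. The groups were cerebral cortex of mice with the SLC1a4 -/- genotype (KO, 4 libraries), cerebral cortex of wild-type mice (WT, 4 libraries), striatum of SLC1a4 -/- mice (KO, 3 libraries) and striatum of wild-type mice (WT, 4 libraries). Slc1a4 encodes ASCT1, a neutral amino acid transporter. The labels used here name no promoter, Cre driver or cell type for the deletion, and no hour of the day at which tissue was taken. Nothing in them says that the replicates of a group are separate animals, so p-values here reflect the spread among these libraries, which may be technical.

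The molecular clock is a feedback loop of transcription. BMAL1, the product of Arntl, pairs with CLOCK and activates genes that carry E-box sequences, among them the Per and Cry genes, Nr1d1, Nr1d2 and Dbp; PER and CRY proteins then inhibit that activation. The products of Nr1d1 and Nr1d2 repress Arntl through ROR elements, and DBP, TEF and HLF, which form the PAR bZIP family, carry the rhythm to output genes through D-box sequences. The transcripts cycle over the day in the forebrain as well as in the master clock of the hypothalamus, and Per1 and Per2 also respond acutely to glucocorticoids and to neuronal activity.

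The depth was 22990233 to 25697792 reads per library in striatum and 26791109 to 30276815 in cortex. Values are normalized counts, that is, reads divided by 1 factor per library. Differences were tested with limma on log2(normalized count + 1). A gene was called when its Benjamini-Hochberg adjusted p over all genes tested was below 0.05. Slc1a4, which checks the genotype labels, stood at 251.8, 307.9, 248.7 and 251.0 in KO cortex, against 1591, 1613, 1797 and 1494 in WT cortex. In striatum it stood at 343.8, 310.9 and 157.7 in KO, against 1237, 1660, 1726 and 1509 in WT, so every KO library lay below every WT library. The tissue labels matched their markers. All 10 striatal neuron markers were called higher in striatum than in cortex in both genotypes, all 10 cortical excitatory markers were called lower, and no marker of either list was at 0 in any library. The striatum libraries KO 4 and WT 8 had the lowest striatal marker sums of their groups and the highest sums of thalamic, septal and pallidal markers, and results on striatum are also given without them where that changes a call, a direction or a size by over 1.5 times. Because these are bulk samples, fewer cells of a type and less RNA per cell cannot be told apart.

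RefSeq start sites (GRCm38.p6) were at hand for 9 of the 10 genes, all but Per2, in 12 windows of 250 bases upstream of a start. Both strands were searched for the letters of the clock's own elements: E-box CACGTG, D-box TTATGTAA or TTACGTAA, the core AGGTCA of ROR elements, and CRE TGACGTCA. A match was found in 7 windows, of 6 genes. Among 32851 promoter windows of the same length, 6.02% held the E-box, 0.931% a D-box, 14% AGGTCA and 1.55% the CRE. The sites below are those of the elements on which the loop and its PAR bZIP output rest. They are shown 5′ to 3′ on the gene's strand with the element in capitals. The last line is the whole window of Dbp, the gene with the widest gap between genotypes, in which none of these letters was found.
Per1 E-box (166 bases upstream, chr11:69098763-69098808, plus strand): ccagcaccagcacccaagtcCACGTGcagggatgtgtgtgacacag
Cry1 E-box (60 bases upstream, chr10:85185089-85185134, minus strand): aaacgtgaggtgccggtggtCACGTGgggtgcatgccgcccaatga
Tef E-box (127 bases upstream of its first start, chr15:81802526-81802571, plus strand): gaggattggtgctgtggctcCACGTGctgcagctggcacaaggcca
Per3 D-box (205 bases upstream, chr4:151044843-151044890, minus strand): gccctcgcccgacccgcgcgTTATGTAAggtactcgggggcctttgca
Per3 second D-box (158 bases upstream, chr4:151044796-151044843, minus strand): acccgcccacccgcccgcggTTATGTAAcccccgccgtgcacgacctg
Dbp upstream window (chr7:45704997-45705246, plus strand): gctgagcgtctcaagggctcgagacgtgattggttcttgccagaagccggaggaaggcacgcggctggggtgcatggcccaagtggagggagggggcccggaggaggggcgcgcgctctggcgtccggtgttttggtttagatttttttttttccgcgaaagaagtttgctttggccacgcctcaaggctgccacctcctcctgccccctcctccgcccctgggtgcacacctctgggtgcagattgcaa
A match in these letters is a description of the sequence and not a measured binding site, and the lack of one in the windows of Dbp, Arntl and Nr1d1 says only that these letters are not in those bases. A second Tef start also carried the E-box, 138 bases upstream. Per1 held the core of a ROR element on the other strand 137 bases upstream and Nr1d2 held it 77 bases upstream. Hlf held the CRE 9 bases upstream.

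Per kilobase of annotated exon, the PAR bZIP genes and the Nr1d repressors were the most abundant of the 10, and Arntl the least, in KO and in WT cortex. In KO cortex the level per kilobase was 1235 ± 62.3 normalized counts for Tef, 1153 ± 188 for Hlf and 1125 ± 22.9 for Nr1d1 (SD, n = 4). Hlf did not differ from either of its neighbours beyond its spread, and Tef lay above Nr1d1 by more than both SDs. Below them came Nr1d2 at 808 ± 85.9, Dbp at 588 ± 103 and Per1 at 445 ± 98.7 normalized counts per kilobase. Of these only Dbp and Per1 overlapped in their ranges of mean ± SD. Per2 at 209 ± 43.8 and Per3 at 177 ± 30.8 also overlapped in this way, and Cry1 at 139 ± 2.51 lay just above Arntl at 128 ± 5.92. In WT striatum the order of the means differed at the top: Tef stood at 1387 ± 46.4 and Dbp at 1242 ± 208 normalized counts per kilobase. Hlf at 1078 ± 100 and Nr1d1 at 966 ± 156 followed. Each of these overlapped the next in its range of mean ± SD, so their order is not firm.

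**Figure D1:**
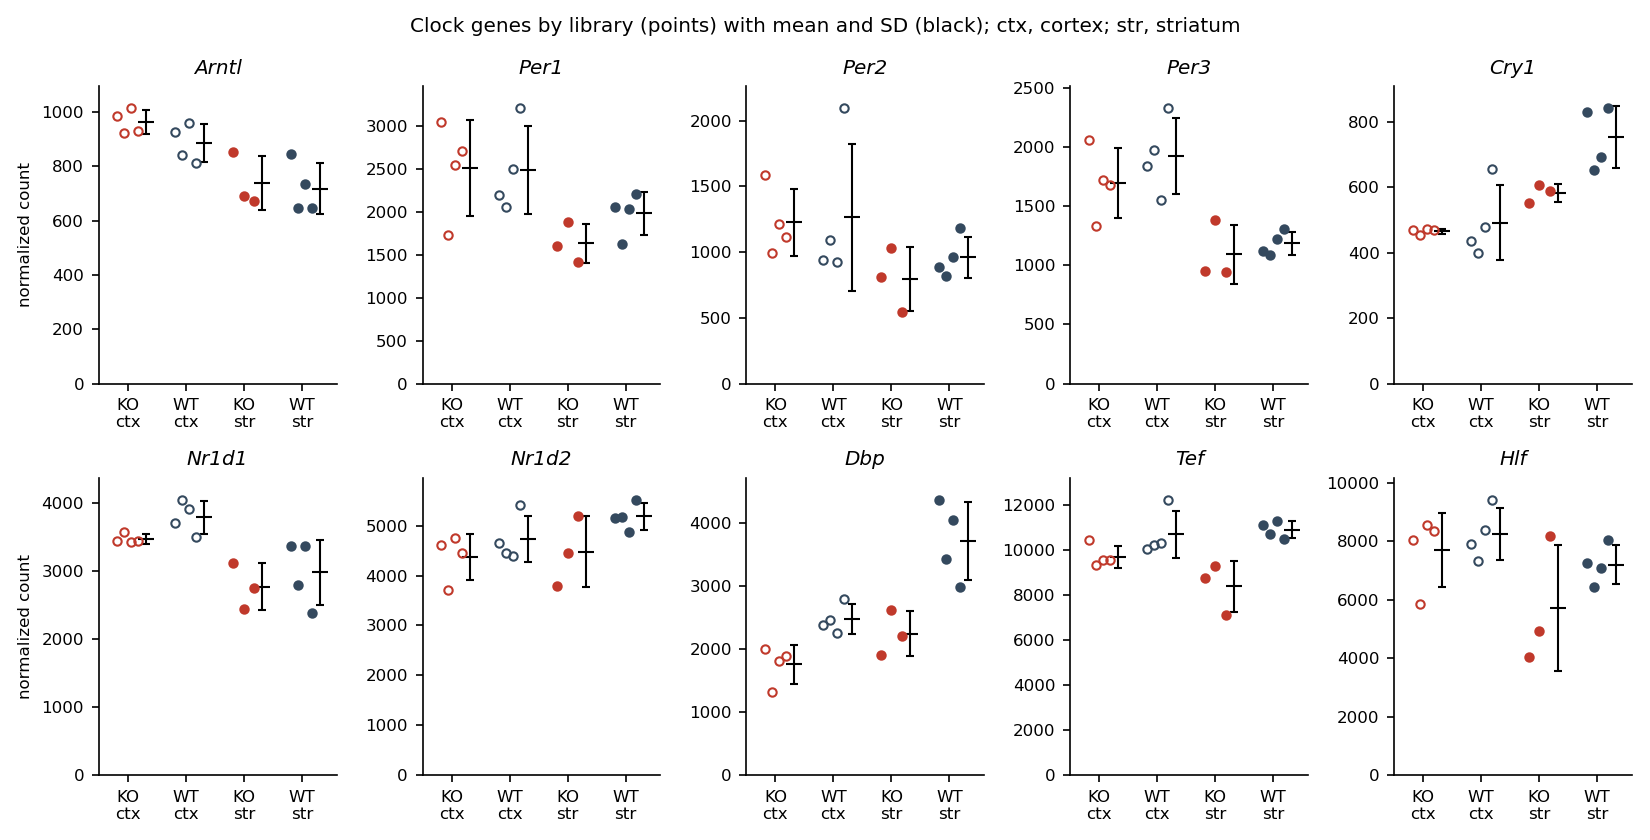
Normalized count (y axis, from 0) of each of the 10 clock genes in every library of KO cortex, WT cortex, KO striatum and WT striatum (x axis); points are libraries, open for cortex and filled for striatum, and black marks give the mean and SD. For Dbp every KO library lies below every WT library of its tissue (1312 to 2009 against 2260 to 2806 in cortex, 1908 to 2627 against 2987 to 4380 in striatum).

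The first comparison asks how the loss of Slc1a4 goes with the clock transcripts in each tissue. None of the 10 was called in KO against WT, in cortex or in striatum. The background was low too: 0.00587% of all genes tested were called in cortex and 0.0763% in striatum, so the absence of calls among 10 genes says little about them. At an unadjusted limma p below 0.05 there was 1 of the 10 in cortex (Dbp) and there were 3 in striatum (Dbp, Tef and Cry1), where 2.51% of all genes tested in cortex and 15.3% in striatum had such a p. With edgeR on recovered reads 0 of the 10 were called in either tissue, and with DESeq2 0 in cortex and 2 in striatum (Dbp and Tef). In striatum DESeq2 called 2.38% of the 14020 genes to which it gave an adjusted p. The log2 fold changes in striatum were below 0 for 9 of the 10 (median -0.29, against 0.0079 over all genes tested), and in cortex for 7 of the 10 (median -0.11, against 0.0012).

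Dbp (ENSMUSG00000059824, chr7:45705088-45710203, plus strand) encodes D-box binding protein, a clock output factor. In cortex it stood at 2009, 1312, 1819 and 1897 normalized counts in KO, against 2387, 2457, 2260 and 2806 in WT. In striatum it stood at 1908, 2627 and 2206 in KO, against 4380, 3442, 4060 and 2987 in WT. The genotypes did not overlap in either tissue. Of all genes tested, 4.02% did not overlap between KO and WT in cortex and 8.07% in striatum, and 36 genes (0.211%) lay below WT without overlap in both tissues. The KO mean was 71.0% of the WT mean in cortex (1759 ± 308 against 2478 ± 234, SD, n = 4 each; log2 fold change -0.51, SE 0.144, limma adjusted p = 1.0). In striatum it was 60.4% (2247 ± 361, n = 3, against 3717 ± 623, n = 4, SD; log2 fold change -0.72, SE 0.155, limma adjusted p = 0.122). Relabelling the Dbp values exactly (two-sided permutation) gave p = 0.029 in cortex and p = 0.029 in striatum, and no smaller p is possible with so few libraries. In cortex, groups of 4 that do not overlap always give this p, so it adds nothing to the lack of overlap. Neither p was adjusted for the number of genes. The striatal value was past the threshold without the libraries KO 4 and WT 8 (log2 fold change -0.82, limma adjusted p = 0.0235, where 5.06% of all genes were called), without KO 4 alone (-0.72, adjusted p = 0.0463) and without WT 8 alone (-0.82, adjusted p = 0.0323). The fit without KO 4 alone called 3.03% of all genes tested, and that without WT 8 alone called 1.1%. Over the 27 alternatives run the adjusted p of Dbp in striatum was 0.00273 (DESeq2) to 0.679. Of these alternatives 22 left Dbp uncalled. The order of the 4 groups by mean was KO cortex, KO striatum, WT cortex and WT striatum, and the neighbours overlapped except for WT cortex and WT striatum.

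The strand setting of the counting is not given in the sources used here, and 18% of the exon bases of Dbp (539 bases) also belong to Sphk2 on the opposite strand. Reads from those bases cannot be assigned with certainty. Sphk2 itself had log2 fold changes of 0.14 in cortex and 0.020 in striatum, KO over WT (limma adjusted p = 1.0 in cortex and 0.937 in striatum).

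Tef (ENSMUSG00000022389, chr15:81802421-81826863, plus strand) encodes thyrotroph embryonic factor, a relative of DBP. In striatum it stood at 8756, 9299 and 7104 normalized counts in KO, against 11128, 10731, 11289 and 10490 in WT. The KO libraries all lay below the WT libraries, with a log2 fold change of -0.39 (SE 0.0900, limma adjusted p = 0.128; exact permutation p = 0.029, the smallest possible). Without the striatum libraries KO 4 and WT 8 it was -0.29 (adjusted p = 0.0592), and DESeq2 called Tef (adjusted p = 0.0115); the adjusted p was 0.0115 to 0.679 over 27 alternatives. Without all 4 libraries numbered 4 and 8 limma called Tef (-0.29, adjusted p = 0.0476), where 2.4% of all genes were called. In cortex Tef stood at 9320 to 10430 in KO, with a median of 9553, against 10048 to 12248 in WT, with a median of 10259, and the groups overlapped (log2 fold change -0.14, SE 0.0833, limma adjusted p = 1.0). An unnamed gene model, Gm17597, shares 193 bases (2.45%) of the Tef exons on the opposite strand.

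Hlf (ENSMUSG00000003949, chr11:90336536-90390895, minus strand), the third PAR bZIP gene, varied most within KO striatum. It stood at 4051, 4927 and 8162 normalized counts in KO striatum, against 7245, 6419, 7097 and 8046 in WT striatum. The high KO library was number 4, above every WT library, and the other two KO libraries lay below every WT library. The log2 fold change was -0.39 (SE 0.19, limma adjusted p = 0.34). It was -0.68 without KO 4 (adjusted p = 0.0271), where 3.03% of all genes tested were called. Without both KO 4 and WT 8 it was -0.63 (adjusted p = 0.0348), where 5.06% were called. Without KO 2 it was -0.18 (adjusted p = 0.672). In cortex Hlf stood at 5851 to 8569 in KO, against 7306 to 9425 in WT, and the groups overlapped (log2 fold change -0.11, SE 0.176).

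Among the inhibitors of the loop, Cry1 showed the next gap in striatum. Cry1 (ENSMUSG00000020038, chr10:85131700-85185064, minus strand) encodes a cryptochrome that blocks BMAL1 and CLOCK. It stood at 551.8, 606.1 and 589.6 normalized counts in KO striatum, against 829.1, 653.3, 693.3 and 842.6 in WT striatum. The groups did not overlap (log2 fold change -0.37, SE 0.137, limma adjusted p = 0.243; exact permutation p = 0.057, with 0.029 the smallest possible). In cortex it stood at 468.4, 452.9, 471.4 and 468.4 in KO, against 435.1, 398.4, 479.0 and 656.7 in WT. The KO libraries were close together there and lay inside the WT range (log2 fold change -0.055, SE 0.126).

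The Period genes, whose products are the partners of the cryptochromes, overlapped between genotypes in both tissues. Per1 (ENSMUSG00000020893, chr11:69095217-69109960, plus strand) averaged 1630 ± 230 normalized counts in KO striatum (n = 3) and 1980 ± 248 in WT striatum (SD, n = 4). In cortex it stood at 3044, 1732, 2541 and 2701 in KO, against 2189, 2051, 2492 and 3206 in WT, and KO library 2 was the 1 library below the WT range. The log2 fold change of Per1 was -0.28 in striatum (SE 0.183, limma adjusted p = 0.478) and 0.0032 in cortex (SE 0.169), and the striatal value was -0.13 without KO 4 and WT 8. Per2 (ENSMUSG00000055866, chr1:91415982-91459324, minus strand) stood at 810.2, 1030 and 547.2 in KO striatum, against 889.4, 820.0, 959.1 and 1180 in WT striatum. Library KO 4 was lowest and the other KO libraries were near or inside the WT range: the log2 fold change was -0.31 (SE 0.267, limma adjusted p = 0.609), and 0.041 without KO 4 and WT 8. In cortex Per2 stood at 1587, 991.0, 1212 and 1116 in KO, against 939.8, 1093, 922.3 and 2095 in WT. The WT library 8 was highest there and every KO library lay inside the WT range (log2 fold change 0.025, SE 0.247). Per3 (ENSMUSG00000028957, chr4:151003652-151044665, minus strand) had log2 fold changes of -0.14 in striatum (SE 0.161, limma adjusted p = 0.712; 0.0040 without KO 4 and WT 8) and -0.18 in cortex (SE 0.149).

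Nr1d1 and Nr1d2, which encode the repressors REV-ERB alpha and beta, also overlapped. Nr1d1 (ENSMUSG00000020889, chr11:98767932-98775333, minus strand) averaged 3463 ± 70.5 normalized counts in KO cortex and 3783 ± 242 in WT cortex (SD, n = 4 each), a log2 fold change of -0.13 (SE 0.102; exact permutation p = 0.057). In striatum it averaged 2765 ± 343 in KO (n = 3) and 2974 ± 481 in WT (SD, n = 4), a log2 fold change of -0.098 (SE 0.11), or -0.20 without KO 4 and WT 8; with 1 library left out it ran from -0.201 (without WT 8) to -0.00892 (without KO 3). Nr1d1 shares 263 bases (8.55%) of its exons with Thra on the opposite strand, so its count is uncertain in the same way as that of Dbp. Nr1d2 (ENSMUSG00000021775, chr14:18204054-18239127, minus strand) stood at 3790, 4444 and 5198 in KO striatum, against 5158, 5180, 4881 and 5523 in WT striatum. Only KO library 4 reached the WT range. Nr1d2 had log2 fold changes of -0.12 in cortex (SE 0.0997) and -0.22 in striatum (SE 0.108, limma adjusted p = 0.342), where it was -0.11 without KO 2 and -0.34 without KO 4 (adjusted p = 0.0885). Arntl (ENSMUSG00000055116, chr7:113207465-113314126, plus strand), the activator, was the 1 gene of the 10 with a log2 fold change above 0 in both tissues. The cortex value was 0.12 (SE 0.0966). The striatum value was 0.042 (SE 0.104, limma adjusted p = 0.886) and ran from -0.0664 to 0.123 with 1 library left out; the genotypes overlapped in both.

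**Figure D2:**
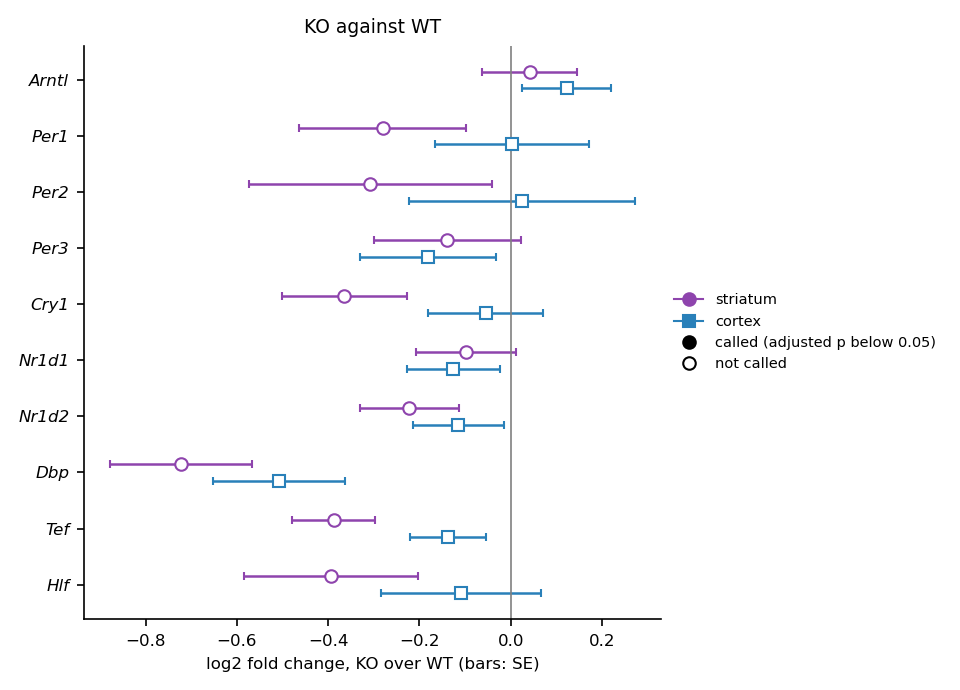
Log2 fold change of KO over WT (x axis, bars are SE) for each of the 10 clock genes (y axis) in striatum (circles) and cortex (squares); filled symbols would mark called genes, and all symbols are open. Dbp lies farthest from 0 in both tissues, at -0.72 in striatum and -0.51 in cortex.

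Whether the genotype difference itself differed between the tissues was tested as the KO effect in striatum minus that in cortex. No clock gene was called (limma adjusted p from 0.961 to 0.998), 0 of the 10 had an unadjusted p below 0.05 (4.9% of all genes tested did), and edgeR, voom and DESeq2 also called 0 of the 10. The share of all genes called was 0.00587%. On the log2 scale the difference was -0.33 for Per2 (SE 0.364), -0.31 for Cry1 (SE 0.186), -0.29 for Hlf (SE 0.259) and -0.28 for Per1 (SE 0.249). Without the striatum libraries KO 4 and WT 8 it was 0.016 for Per2, -0.52 for Hlf, -0.13 for Per1, -0.15 for Tef and -0.19 for Nr1d2, against -0.25 for Tef and -0.11 for Nr1d2 with them. For Per3 it was 0.185 without these 2 libraries, against 0.042 with them. For Dbp the difference over all libraries was -0.21 (SE 0.212, limma adjusted p = 0.974). A gap in striatum was therefore not shown to be wider than that in cortex for any of the 10.

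The remaining genes of the pathway were read from lists of 13 further loop genes, 16 modifiers of clock proteins such as kinases and ubiquitin ligases, and 11 clock outputs. In KO against WT 0 of these 40 genes were called by limma in either tissue. At an unadjusted p below 0.05 there were 1, 0 and 2 of them in cortex and 3, 3 and 1 in striatum, in the order of the lists, beside the 2.51% and 15.3% of all genes tested given above for cortex and striatum; the 7 of 40 in striatum were near that share. The median log2 fold changes of the lists in striatum were -0.13, 0.019 and -0.042, against 0.0079 over all genes tested. Ciart, which encodes the circadian repressor CHRONO, stood at 277.0, 262.9 and 240.3 normalized counts in KO striatum, against 407.2, 380.0, 308.5 and 473.7 in WT striatum, with no overlap (log2 fold change -0.58, SE 0.162, limma adjusted p = 0.174). In cortex Ciart averaged 316.0 ± 53.3 in KO and 424.8 ± 66.9 in WT (SD, n = 4 each; log2 fold change -0.43, SE 0.15, limma adjusted p = 1.0), and the groups overlapped. Usp2, a deubiquitinase of clock proteins, had a log2 fold change of -0.38 in striatum (SE 0.105, limma adjusted p = 0.173), or -0.47 without the libraries KO 4 and WT 8 (adjusted p = 0.0366). Klf9, a Krüppel-like output factor that also responds to glucocorticoids, had one of -0.37 (SE 0.0977, limma adjusted p = 0.169). DESeq2 called Ciart (adjusted p = 0.0386), Usp2 (0.0387) and Klf9 (0.0284) lower in KO striatum, and edgeR called 0 of the 40. Without KO 4 and WT 8, limma called Usp2 and the nuclear receptor Rora lower in KO striatum. That fit called 5.06% of all genes tested, so these calls among the 40 genes were near that share. Rora was also called lower there in the KO effect in striatum minus cortex, where 0.153% of all genes were called.

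Markers of other cell types and hormone-responsive transcripts were read in the same libraries. The summed normalized count of the 10 striatal neuron markers was 41708 to 96425 in KO striatum and 82930 to 185530 in WT striatum, and all 10 markers had a log2 fold change below 0 (median -0.83). That of the 10 cortical excitatory markers was 8288 to 14626 in KO striatum and 4684 to 8539 in WT striatum, with 1 of the 10 called higher. Oligodendrocyte markers summed to 142893 to 292642 in KO and 206999 to 285836 in WT striatum, with 8 of 8 log2 fold changes below 0. Microglial markers summed to 11531 to 14050 in KO and 13453 to 15311 in WT striatum, with 7 of 8 below 0 (median -0.19) and 4 of 8 at an unadjusted p below 0.05. Thalamic, septal and pallidal markers summed to 6567 to 39124 in KO and 9732 to 23790 in WT striatum, and choroid plexus markers to 3088 to 91272 in KO and 1959 to 148701 in WT. No marker of these 6 lists was at 0 in any striatum library. Their part in the striatal values of Dbp, Tef and Cry1 was not tested. In cortex, where Dbp also lay below WT without overlap, all 10 striatal markers again had a log2 fold change below 0 (median -0.48), with sums of 7149 to 12359 in KO and 7099 to 19682 in WT, and the cortical excitatory sums were 60534 to 63850 in KO and 58824 to 66870 in WT. All 10 choroid plexus markers had a log2 fold change above 0 in cortex (median 1.32), with sums of 1517 to 6552 in KO and 673.7 to 2119 in WT. The part of these markers in the cortical value of Dbp was not tested either.

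The 17 glucocorticoid-responsive genes summed to 19984 to 21128 normalized counts in KO cortex and 18136 to 26752 in WT cortex, and to 19098 to 23898 in KO striatum and 19785 to 33402 in WT striatum. The upper end of both WT ranges was library number 8. None of these 17, the 22 immediate early genes or the 10 temperature-responsive genes was called by limma in KO against WT in either tissue (unadjusted p below 0.05 for 1, 0 and 1 in cortex, and for 2, 2 and 2 in striatum, beside 2.51% and 15.3% of all genes tested). Without the striatum libraries KO 4 and WT 8, limma called Zbtb16 and Bdnf higher and Hspa1b and Hspe1 lower in KO striatum, where 5.06% of all genes were called. Of these 49 genes, edgeR called Bdnf and DESeq2 called Bdnf and Hspa1b in striatum, and neither called any in cortex. The immediate early genes summed to 31766 to 52797 in KO cortex and 31410 to 54510 in WT cortex. Although these ranges overlapped, 20 of the 22 had a log2 fold change above 0 in cortex, KO over WT (median 0.22). In striatum 9 of the 22 did (median -0.03). Of the 10 temperature-responsive genes, 9 had one below 0 in each tissue (median -0.086 in cortex and -0.13 in striatum). Of the 17 glucocorticoid-responsive genes, 9 did in cortex and 12 in striatum.

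**Figure D3:**
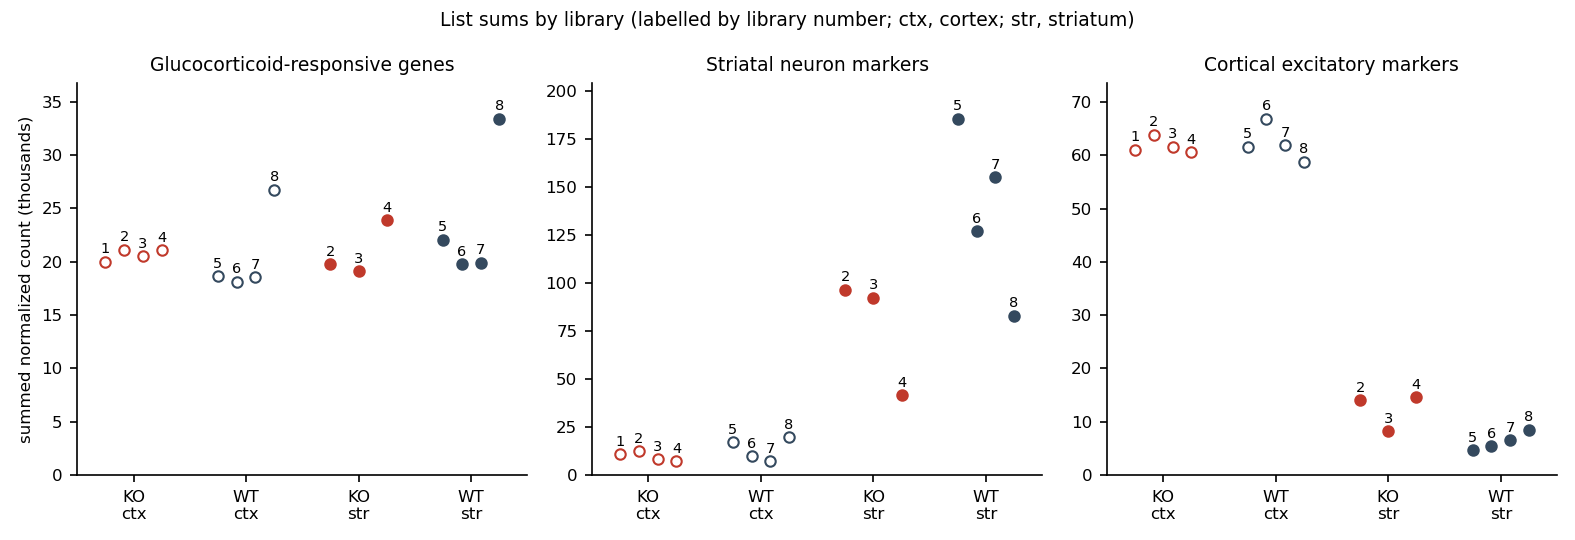
Summed normalized count, divided by 1000 (y axis, from 0) of the glucocorticoid-responsive genes, the striatal neuron markers and the cortical excitatory markers in every library, labelled by its number, for KO cortex, WT cortex, KO striatum and WT striatum (x axis). WT library 8 is highest of its group for the glucocorticoid-responsive genes in both tissues (26752 in cortex and 33402 in striatum), and KO 4 is lowest for the striatal markers (41708).

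The second comparison asks how the clock transcripts differ between striatum and cortex. In WT, 5 of the 10 were called: Cry1 and Dbp higher in striatum, and Arntl, Per3 and Nr1d1 lower. In KO, 4 of the 10 were called, all lower in striatum: Arntl, Per1, Per3 and Nr1d1. Over all genes tested, 50.5% were called in WT (24.9% higher and 25.7% lower) and 37.9% in KO (18.4% higher and 19.5% lower), so the shares of clock genes called were near the background. The medians over the 10 were -0.25 in WT and -0.36 in KO on the log2 scale, against 0.0058 over all genes tested in WT and 0.0024 in KO.

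Per3 was called lower in striatum in both genotypes. It stood at 952.5, 1381 and 942.1 normalized counts in KO striatum, against 2061, 1336, 1718 and 1679 in KO cortex. In WT it stood at 1124, 1089, 1223 and 1310 in striatum, against 1840, 1972, 1555 and 2331 in cortex. The tissues did not overlap in WT, and in KO they overlapped through 1 library of each tissue. The log2 fold change was -0.64 in KO (limma adjusted p = 0.00583) and -0.69 in WT (SE 0.149, limma adjusted p = 0.0015).

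Arntl stood at 854.0, 691.6 and 672.1 normalized counts in KO striatum, against 984.4, 922.7, 1015 and 929.3 in KO cortex, without overlap. In WT it stood at 845.0, 645.2, 735.9 and 647.6 in striatum, against 926.6, 842.4, 960.7 and 814.1 in cortex, with 1 striatum library inside the cortex range. The log2 fold change of Arntl was -0.39 in KO (limma adjusted p = 0.009) and -0.31 in WT (SE 0.0966, limma adjusted p = 0.0157), a WT call that ended without WT striatum 6 (-0.26, adjusted p = 0.0524). Nr1d1, whose product represses Arntl, was also lower in striatum, at 2765 ± 343 against 3463 ± 70.5 in KO and at 2974 ± 481 against 3783 ± 242 in WT (SD; log2 fold change -0.33, limma adjusted p = 0.0274, and -0.36, adjusted p = 0.00878). The KO call of Nr1d1 ended without any 1 of KO cortex 1, KO cortex 2, KO striatum 3 or KO striatum 4 (adjusted p from 0.0509 to 0.125). Thra, which overlaps Nr1d1 on the opposite strand, had log2 fold changes of -0.35 in KO (adjusted p = 0.0109) and -0.29 in WT (adjusted p = 0.0166), so the overlapping gene moved the same way.

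Cry1 ran in the other direction. It stood at 829.1, 653.3, 693.3 and 842.6 normalized counts in WT striatum, against 435.1, 398.4, 479.0 and 656.7 in WT cortex. The cortex library number 8 lay just above the lowest striatum library and the others lay below all of them. Cry1 was 1.53-fold higher in WT striatum by the means (log2 fold change 0.63, SE 0.126, limma adjusted p = 0.000792). In KO it stood at 551.8 to 606.1 in striatum, against 452.9 to 471.4 in cortex, without overlap, yet the fit over all libraries gave 0.32 with adjusted p = 0.0767. It was past the threshold when only the KO groups were fitted (0.32, adjusted p = 0.0105) and without WT cortex 8 (0.32, adjusted p = 0.0162), a library that entered only through the shared variance.

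Dbp was 1.5-fold higher in WT striatum than in WT cortex, without overlap (log2 fold change 0.57, SE 0.144, limma adjusted p = 0.00406). In KO the log2 fold change of Dbp was 0.36 (limma adjusted p = 0.0822), and 1 library of each tissue overlapped; without KO striatum 2 it was 0.47 (adjusted p = 0.045), and without KO cortex 2 it was 0.22 (adjusted p = 0.227). Per1 was called lower in KO striatum at -0.60 (limma adjusted p = 0.0182), a call that ended without KO cortex 1 (-0.49, adjusted p = 0.0578), without KO striatum 4 (-0.50, adjusted p = 0.0699), and without the striatum libraries KO 4 and WT 8 (-0.50, adjusted p = 0.0689). In WT its log2 fold change was -0.31 (limma adjusted p = 0.135), or -0.18 without WT cortex 8. Per2, Nr1d2, Tef and Hlf were not called in either genotype. Hlf was at -0.48 in KO (limma adjusted p = 0.0593) and past the threshold without KO striatum 4 (-0.77, adjusted p = 0.000952) or KO cortex 2 (-0.61, adjusted p = 0.0217), but was -0.26 without KO striatum 2 (adjusted p = 0.29). Without the striatum libraries KO 4 and WT 8, limma also called Hlf lower in KO striatum, where 36.0% of all genes were called. Per2 was at -0.65 (limma adjusted p = 0.0695) and past it without WT cortex 8 (-0.65, adjusted p = 0.0196) or KO striatum 3 (-0.86, adjusted p = 0.0337), but was -0.40 without KO striatum 4 (adjusted p = 0.283). Tef was at -0.22 in KO (limma adjusted p = 0.0676), without overlap between the tissues, and past the threshold without WT cortex 8 (-0.22, adjusted p = 0.0454) or KO striatum 3 (-0.30, adjusted p = 0.0248), but was -0.10 without KO striatum 4 (adjusted p = 0.338).

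**Figure D4:**
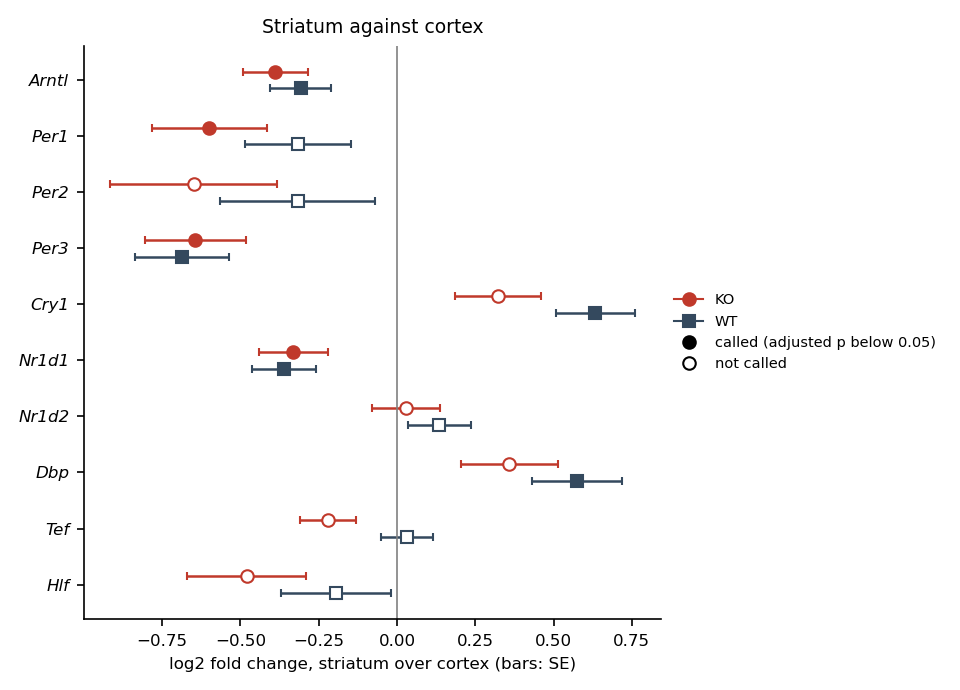
Log2 fold change of striatum over cortex (x axis, bars are SE) for each of the 10 clock genes (y axis) in KO (circles) and WT (squares); filled symbols are called at an adjusted p below 0.05. In both genotypes Arntl, Per3 and Nr1d1 are filled and lie left of 0, and in WT Cry1 (0.63) and Dbp (0.57) are filled and lie right of it.

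The other genes of the pathway were read from the same lists. Among the 13 further loop genes 7 were called in KO (2 higher, 5 lower) and 8 in WT (3 higher, 5 lower), where 37.9% of all genes were called in KO and 50.5% in WT. Without KO 4 and WT 8 the counts were 9 in KO (2 higher, 7 lower) and 10 in WT (4 higher, 6 lower). That setting called 36.0% of all genes tested in KO and 54.0% in WT. Arntl2, the paralog of Arntl, was lower in striatum, with log2 fold changes of -1.22 in KO (limma adjusted p = 5.79e-05) and -1.47 in WT (adjusted p = 2.57e-06). Bhlhe40, an E-box repressor also known as DEC1, was at -0.86 in KO (limma adjusted p = 0.000128) and -0.94 in WT (adjusted p = 1.44e-05). Of the 16 modifiers 5 were called in KO (2 higher, 3 lower) and 9 in WT (4 higher, 5 lower): Fbxl21, a ubiquitin ligase subunit that binds cryptochromes, was at 1.28 in KO and 1.37 in WT on the log2 scale, and the casein kinase gene Csnk1e at -0.39 in KO and -0.51 in WT, all 4 called by limma. Of the 11 outputs 8 were called in each genotype (4 higher and 4 lower in KO, 5 higher and 3 lower in WT). Without KO 4 and WT 8, the modifiers called were 2 higher and 4 lower in KO, and 4 higher and 6 lower in WT. The outputs called in that setting were 4 higher and 3 lower in KO, and 5 higher and 3 lower in WT. The peptide gene Avp, a hypothalamic clock output, stood at 623.0, 833.5 and 85.74 normalized counts in KO striatum, against 2.684 to 17.78 in KO cortex, and at 25.02, 601.5, 126.8 and 148.4 in WT striatum, against 1.902 to 7.534 in WT cortex, so its striatal level varied widely among libraries of a group.

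The 10 genes also varied among libraries of the same group. The within-group SD on the log2 scale was 0.399 for Per2, the 94.9th percentile of 12283 genes averaging 100 or more normalized counts, against 0.135 for the median gene. Hlf (86.9th percentile), Per1 (85.9th) and Per3 (81.2nd) were next, and Tef (41.8th) was the steadiest. In WT cortex library 8 was highest of its group for 8 of the 10 and lowest for the other two, Arntl and Nr1d1. In WT striatum library 8 was highest for 6 of the 10 and lowest for Nr1d1, Dbp and Tef. Per1, Per2, Per3, Cry1, Nr1d2 and Hlf were highest in number 8 in both tissues, and Nr1d1 was lowest in both. Dbp and Tef were highest in number 8 in WT cortex but lowest in it in WT striatum. Of the 17 glucocorticoid-responsive genes, 15 were highest in number 8 in WT cortex and 16 in WT striatum. Library KO striatum 4 was the highest among KO striatum libraries for 11 of these 17 genes. Their sum there was 23898, against 19737 in KO striatum 2 and 19098 in KO striatum 3. Yet KO striatum 4 was lowest among them for Per1, Per2, Per3, Arntl and Tef, and highest for Nr1d2 and Hlf. In KO cortex library 2 was lowest of its group for 9 of the 10, all but Nr1d1, and its immediate early sum was 31766 against 50161 to 52797 in the other KO cortex libraries. In WT cortex that sum was highest in library 7 (54510), which was lowest for Per2, Per3, Nr1d2 and Dbp. It was lowest in library 5 (31410), which was lowest of its group for Tef alone. In KO striatum the sum was highest in library 3 (21723), which was highest for 6 of the 10. In WT striatum it was lowest in library 8 (16939). The part of these transcripts in the clock values was not tested. Without number 8 and number 4 in both tissues, the log2 fold change of Dbp was -0.82 in striatum (limma adjusted p = 0.044) and -0.49 in cortex (adjusted p = 0.873). That fit called 2.4% of all genes tested in striatum.

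**Figure D5:**
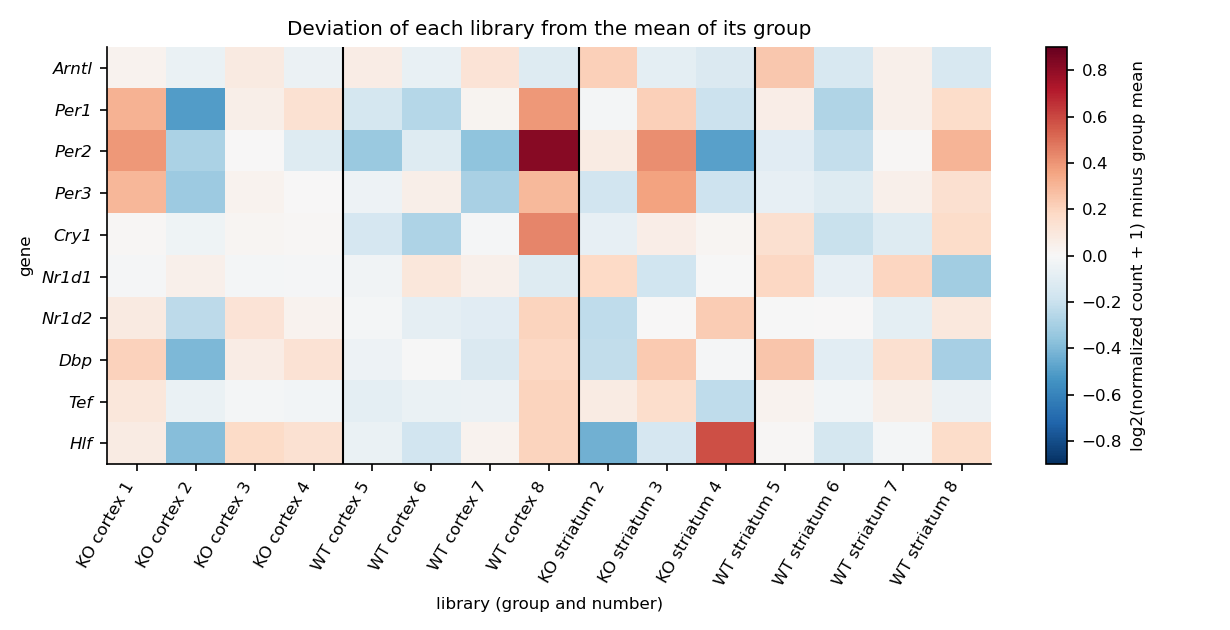
Deviation of log2(normalized count + 1) of each library (x axis, grouped as KO cortex, WT cortex, KO striatum and WT striatum, split by black lines) from its group mean for each of the 10 clock genes (y axis); red is above and blue below the mean. KO cortex 2 is blue for 9 of the 10 genes, and WT cortex 8 is red for 8 of the 10.

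Cortex and striatum libraries of a genotype carry the same numbers in 7 cases, and it was asked whether a gene deviated together in libraries of the same number. Pearson's r of the deviations over the 7 numbers ran from -0.235 (Tef) to 0.714 (Nr1d2). None of the 10 relations passed the exact permutation test of numbers within a genotype (two-sided, 144 arrangements, Benjamini-Hochberg adjusted over the 10), at an adjusted p of at least 0.486 for r and at least 0.538 for Spearman's rho, and 0 of the 10 had an unadjusted p below 0.05. For Nr1d2 r was 0.714 (exact p = 0.132) and rho was 0.857 (exact p = 0.0625), and r was 0.443 without the 2 numbers farthest from the cortex median. For Cry1 r was 0.623 (exact p = 0.382) and rho 0.607 (exact p = 0.306), and r was -0.52 without such 2 numbers, one of which was number 8, so that relation rested on them.

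The genes whose deviations were most like those of a clock gene were listed for Dbp and Arntl over the 15 libraries, after group means were removed, among 12273 genes. For Dbp they were Id4 (Pearson's r = 0.917), Camkk2 (0.91), Wdr90 (0.895), Plk5 (0.893) and Cited4 (0.89). For Arntl they were Vti1b (0.927), 9130401M01Rik (0.918), Dnpep (0.898), Josd1 (0.895) and Becn1 (0.89). Of the other clock genes, Per3 (0.632) and Per1 (0.624) were most like Dbp, and Nr1d1 (0.695) was most like Arntl. These are descriptions over libraries that share depth, dissection and scaling, and the genes were picked as the highest of many.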

How the data were processed

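Per the labels' protocols, RNeasy-purified RNA (800 ng) entered a NEBNext Ultra library preparation; sequencing gave single-end reads of 75 bases. The submitters' processing notes name the build GRCm38 and the tools HTSeq 0.6.0, TopHat2 2.1.1, DESeq2 1.12.4, cutadapt 1.1 and FastQC 0.11.5, without roles; the annotation release and strand setting are not given in the sources used here. The deposited table holds 1 signal value per gene and library: counts of reads after scaling by the authors with a single factor for each library. All values (100%) lay within 0.001 of whole reads, so reads were recovered for the count tests.

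A gene was tested if 3 or more of the 15 libraries had 10 or more normalized counts (17030 of 26595 genes). limma 3.58.1 (R 4.3.3) was fitted with a variance trend to log2(normalized count + 1) with 1 mean per group (11 residual degrees of freedom), so log2 fold changes are on that scale. Fold changes by means use unlogged values. p-values were adjusted by Benjamini-Hochberg over all genes tested, in 5 comparisons. Exact permutation tests were run in Python 3.11.15. Alternatives were pseudocounts of 0.5 and 5, no filter and a filter of 50, TMM rescaling, edgeR 4.0.16, DESeq2 1.42.0 and voom on recovered reads, sample weights, fits to the compared groups only, a replicate block, and left-out libraries. The fit was tested on simulated data. Positions, exon lengths and overlaps came from GENCODE M21 (GRCm38), and upstream sequences from RefSeq (GRCm38.p6).

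The 10 genes and the lists were chosen with earlier results of these data known. Named genes were all 10, and from each list the called genes with the largest changes, or those with the smallest p where none was called. Rora was named after its values were seen. Most alike genes were the 5 highest in r among genes averaging 100 or more normalized counts. Leaving out all libraries numbered 4 and 8 was added after the data were seen.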

Additional observations from a re-analysis of the deposited data

Results flagged for a closer look

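Within groups of 4 libraries, single libraries stood apart from the other 3 by Dixon's test for 10 of 153 gene and group combinations searched. Chance alone marks about 1 in 20 such groups. Among the clock genes, Per2 stood at 2095 in WT cortex 8 and Tef at 12248 in the same library, both the highest of their group. Nr1d1 stood at 3567, the highest, and Cry1 at 452.9, the lowest, in KO cortex 2. The other KO cortex libraries were close together for these genes, at 3415 to 3437 for Nr1d1 and 468.4 to 471.4 for Cry1.

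Among the list genes, Zbtb16, a glucocorticoid-responsive transcription factor, stood at 2323 in WT cortex 8 and at 1438 in WT striatum 8, the highest of each group. Ddit4, which responds to stress and glucocorticoids, stood at 906.4 in WT cortex 8, and the co-chaperone Dnajb1 at 1523 in WT striatum 8. Mt1 stood at 2214 in WT cortex 5, the lowest of its group, and Bhlhe40 at 3890 in KO cortex 1, the highest. The cause of these values was not tested.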

How the results depend on the processing

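The count of genes called in KO against WT in striatum, 13, was the most sensitive to the processing. It was 22 with no filter, 333 with DESeq2, 3 with voom, 35 with sample weights, 0 with limma on only the groups compared (against 2598 at an unadjusted p below 0.05 in the fit to all libraries), 861 without the striatum libraries KO 4 and WT 8, and 408 without all 4 libraries numbered 4 and 8; leaving out 1 library gave 4 to 516 (516 without KO striatum 4 and 187 without WT striatum 8). In cortex, with 1 gene called, DESeq2 gave 3 and sample weights 2. For the KO effect in striatum minus cortex, with 1 called, DESeq2 gave 15, sample weights 4, and the fit without KO striatum 4 and WT striatum 8 gave 26, and leaving out 1 library gave 1 to 8. The counts for striatum against cortex stayed within 1.5 times under each alternative run. The cause of these shifts was not tested. Scaling by TMM moved the median of all genes by far less than 0.1.

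The log2 fold changes that turned sign were uncalled, and the farthest from 0 among them were those of Per2 in striatum (-0.31) and between tissues (-0.33). In cortex, KO over WT, Per1 (0.0032) was -0.000617 with TMM, -0.000857 with voom and -0.101 to 0.17 with 1 library left out; Per2 (0.025) was -0.0436 with edgeR, -0.0415 with DESeq2 and -0.107 to 0.298 with 1 left out; Cry1 (-0.055) was 0.0265 with sample weights, 0.0894 without all numbered 4 and 8 and -0.147 to 0.0926 with 1 left out; Hlf was -0.166 to 0.0176 with 1 left out. In striatum, Arntl was -0.0664 to 0.123 with 1 left out, and without KO 4 and WT 8 (or all numbered 4 and 8) Per2 was 0.0411 and Per3 0.00397. For the difference between tissues, Arntl was 0.0566 with sample weights and -0.189 to 0.000571 with 1 left out, Per2 was 0.0164 without KO 4 and WT 8, Per3 was -0.139 to 0.141 and Nr1d2 -0.221 to 0.0072 with 1 left out, and Nr1d1 was -0.0735 without KO 4 and WT 8, -0.0399 without all numbered 4 and 8 and -0.0753 to 0.117 with 1 left out. Nr1d2 in KO striatum against KO cortex was -0.114 with sample weights, -0.0849 without KO 4 and WT 8, -0.075 without all numbered 4 and 8 and -0.0849 to 0.143 with 1 left out. The same-number r was -0.857 to 0.536 for Dbp and -0.13 to 0.875 for Nr1d1 with 1 number left out.

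The labels do not say that equal numbers mark the same animal, and the data do not settle it: r over genes between same-number deviations was 0.00369 to 0.142, and 6 of 7 cortex libraries went best with their own number. With a replicate block the tissue counts were 8312 in WT and 5367 in KO, the difference between tissues gave 0 (limma), and Cry1 (0.326, adjusted p = 0.0455), Dbp (0.429, 0.0498) and Hlf (-0.454, 0.0213) were called in KO striatum against cortex. With 3 or 4 libraries a group, moderate differences can be missed.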
